A study of Mus musculus with 20 samples.

Results

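The step from the 2-cell to the 8-cell mouse embryo was read from 8 of 20 Affymetrix MOE430B arrays, the 4 titled 8-Cell and the 4 titled 2-Cell, over all 22511 probe sets of the array that are not among its 64 controls. The other 12 arrays of the series hold oocytes, 1-cell embryos and blastocysts, 4 of each. Both groups are whole mouse preimplantation embryos whose total RNA was amplified in 2 rounds of in vitro transcription, and neither carries an allele or treatment in the labels. Strain, mating, culture, hours of development and the number of embryos per array are not stated in the labels. Nothing says that the 4 arrays of a stage came from separate collections of embryos, so the p-values measure the spread between these arrays, which may be technical.

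The mouse oocyte stores transcripts that carry the embryo through fertilization and the early divisions. Most of this store is degraded while the embryonic genome is switched on, in a main wave at the 2-cell stage and a further wave during cleavage, which supplies the machinery of RNA and protein synthesis. From the 8-cell stage onward the blastomeres flatten against each other, form junctions and become polarized, which precedes the separation of trophectoderm from inner cell mass.

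Values are the deposited linear intensities, on which all 20 arrays share a 2% trimmed mean of 150. A lower value is therefore a smaller share of the RNA on the array, and fewer cells of a kind cannot be told apart from less RNA per cell. Median intensities ran from 80.9 to 87.5 on the 2-cell arrays and from 90.1 to 93.2 on the 8-cell arrays. The correlation of log2 values between arrays was 0.897 to 0.904 among 2-cell arrays, 0.844 to 0.890 among 8-cell arrays and 0.699 to 0.776 between the stages, so each array was closest to its own stage. Some control probe sets differed as well. The 18 bacterial controls were all brighter on the 8-cell arrays, by 1.09 log2 units on average. The 27 Bacillus controls differed by 0.07. They were dim, with stage means of at most 154.8, so a shift would show little in them. The 3'/5' log2 ratio went from 2.28 ± 0.22 to 1.92 ± 0.10 for beta-actin and from 2.22 ± 0.34 to 0.98 ± 0.37 for Gapdh (SD, n = 4). The part of these shifts in the changes below was not tested.

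At the 8-cell stage 2303 probe sets were higher (10.2% of those tested) and 2015 lower (8.95%) at an adjusted p under 0.05 (limma, Benjamini-Hochberg over all 22511). The median change of all probe sets was 0.10 on the scale of log2(intensity + 20), which is the scale of every log2 change given here and which understates the changes of dim probe sets. Rises of at least 2-fold numbered 1646 and falls 1601. Large changes were mostly falls, with 239 falls against 51 rises of at least 8-fold. The stages did not overlap at 5030 probe sets (22.3%), among them 1925 of the higher and 1741 of the lower. Counted by gene, with the probe set of highest mean log2 value over the 20 arrays (the brightest) standing for each of 9607 genes, 1116 were higher (11.6%) and 1277 lower (13.3%), and the median change was 0.06.

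**Figure D1:**
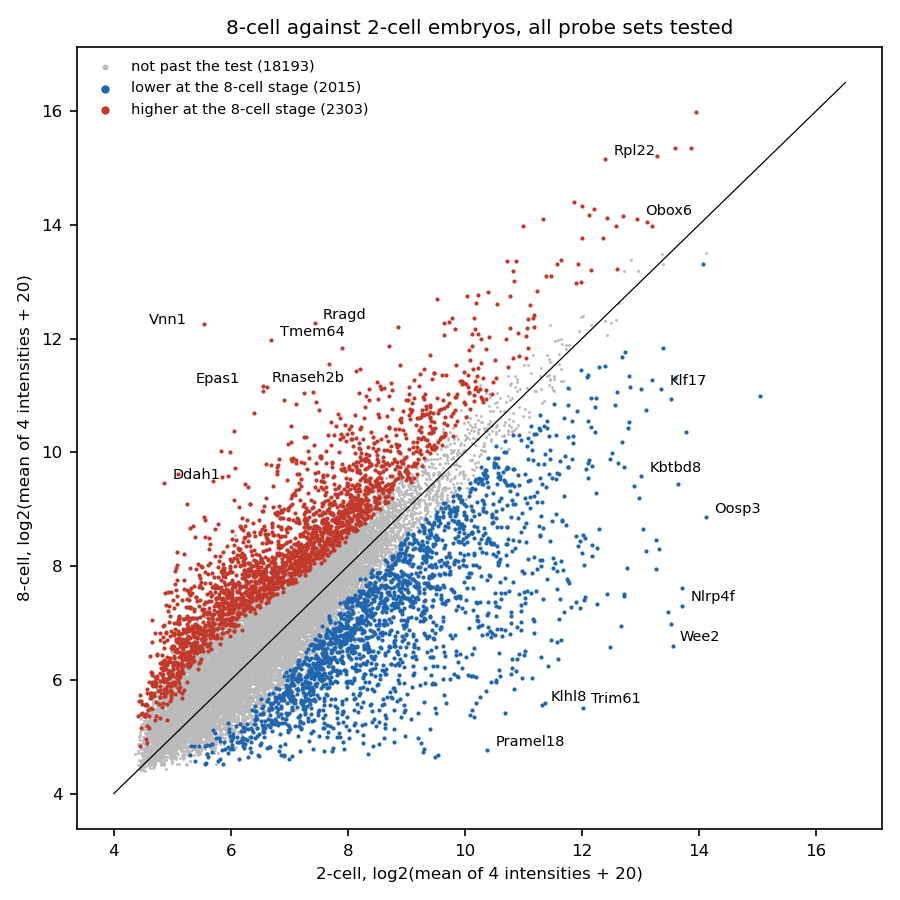
Each point is a probe set, with log2 of the mean intensity of the 4 2-cell arrays plus 20 on the horizontal axis and the same for the 8-cell arrays on the vertical axis. Red points were higher and blue points lower at the 8-cell stage by limma at an adjusted p under 0.05, the line marks equal levels, and the blue cloud reaches farther from the line than the red one, with Wee2, Trim61 and Nlrp4f at its edge and Vnn1 and Tmem64 opposite.

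The largest rise was that of Vnn1, which encodes pantetheinase, an enzyme that releases cysteamine and pantothenate. Vnn1 read 78.5, 5.8, 6.3 and 14.5 on the 2-cell arrays and 4306, 5170, 6059 and 3981 on the 8-cell arrays. The 2-cell values were below the table's median of 82.6 on all 4 arrays, and the change was 6.95 ± 0.35 (SE, adjusted p = 8.82e-13). Tmem64, a membrane protein, read 70.4 to 98.8 at the 2-cell stage and 3189 to 4998 at the 8-cell stage. All of its 3 probe sets rose, by 5.27, 3.94 and 3.29. Rnaseh2b, a subunit of the nuclease that removes ribonucleotides from DNA, rose by 5.02 from 211, 14, 36.2 and 34.9 to 2080, 1941, 2632 and 2468.

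Rragd encodes a Rag GTPase, which brings the growth regulator mTORC1 to the lysosome when amino acids are present. It read 136.1, 194.8, 133.6 and 145.9 at the 2-cell stage and 4079, 6157, 5310 and 4107 at the 8-cell stage, a rise of 4.83 (adjusted p = 5.17e-13). Its other, dimmer probe set did not pass (-0.15, adjusted p = 0.819). Rragc, which encodes the closest relative of RagD and can take the same place in the Rag dimer, went the opposite way. It read 5943, 6575, 6487 and 6120 and then 776.7, 929.4, 918.8 and 876.2, a change of -2.82 (adjusted p = 6.2e-11). The stages did not overlap for either gene.

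Other large rises were those of Syncrip, an RNA-binding protein of the hnRNP family, and Epas1, a hypoxia-inducible transcription factor. Syncrip read 51.4 to 100.1 at the 2-cell stage and 2066 to 2207 at the 8-cell stage, where its 4 arrays were nearly alike. Epas1 went from 42.1 to 106.4 up to 1733 to 2843, a change of 4.55. Ddah1, which breaks down methylated arginines, rose by 4.59 from 9.03 ± 4.24 to 681.2 ± 105.6 (SD, n = 4), and 4 of its 5 probe sets passed. Slc39a2, a zinc transporter, rose by 4.46, Cul5, the scaffold of a family of ubiquitin ligases, by 4.46 (by 2.29 on its brightest probe set), Gk5, a glycerol kinase, by 4.52, and Syde2 by 4.20. Tet2, an enzyme that oxidizes 5-methylcytosine, completed the 12 largest rises of genes with a name other than a clone or predicted-gene name at 4.13, although the probe set that stands for the gene rose by 1.79.

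Among the 12 largest falls of genes with a name other than a clone or predicted-gene name, 9 belong to genes of the oocyte and maternal-effect list. That list was written with earlier results of these data known. Wee2, the kinase that keeps oocytes arrested in meiosis, read 15480, 11464, 10458 and 9539 on the 2-cell arrays and 83.3, 167.8, 90.7 and 82.9 on the 8-cell arrays. The lowest 2-cell value was far above the highest 8-cell value (on its brightest, x_at, probe set the change was -6.10), and the change was -6.57 ± 0.23 (SE, adjusted p = 3.45e-15). Nlrp4f, of the Nlrp genes expressed in oocytes, went from 15242, 15258, 11154 and 11676 to 152.8, 154.4, 92.4 and 152.7, a change of -6.41. Oosp3, an oocyte-secreted protein, read 28896, 18168, 8723 and 15024 and then 402.4, 486.6, 460.7 and 422.2. Its 2-cell arrays differed widely among themselves, and its 8-cell arrays little.

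Bmp15, a growth factor that the oocyte secretes, fell from 2977, 2322, 1525 and 2159 to 11.8, 29.3, 14.5 and 124.7, with replicate 4 the high one at the 8-cell stage. Trim61, a RING-finger gene, changed by -6.45, the Kelch-repeat gene Klhl8 by -5.77, Nlrp4e by -5.24, Nlrp9c by -5.22, Tmprss11a, a membrane serine protease, by -5.06, Oosp2 by -5.05, and Ccdc69 by -4.98. Pramel18 differed from these in its course, as described with the 2-cell genes below. Nlrp4, Nlrp9, Oog, Oosp, Obox, Fbxw and Trim61 genes lie in families of close copies, and cross-hybridization between copies was not tested.

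**Figure D2:**
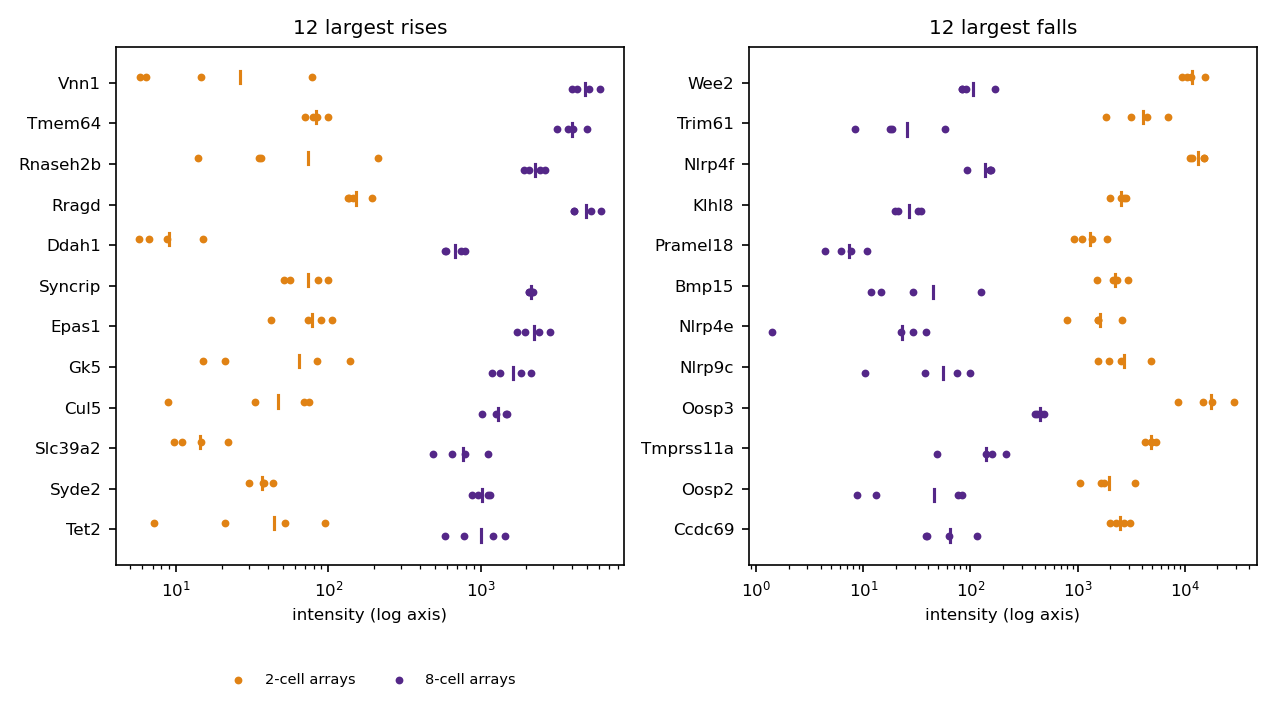
The 12 largest rises (left) and 12 largest falls (right) of named genes, without x_at probe sets and predicted genes, on a log axis of intensity, with each of the 4 2-cell arrays in orange, each of the 4 8-cell arrays in purple and the mean of each stage as a vertical bar. In each of these 24 genes the stages do not overlap, which the rule for naming them required, and the 2-cell values of Oosp3, Trim61 and Nlrp4e are widely spread.

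Oocyte and maternal-effect genes fell as a group. Their list was written with earlier results of these data known, so its counts describe and do not test. Of 42 measured genes of that list, 33 were lower (78.6%, against 13.3% of all genes), 3 were higher, and the median change was -2.85 against 0.06 over all genes. The steepest was Oog3, an oogenesin, at 20767, 11474, 5441 and 10465 and then 34.7, 124.4, 37.4 and 107.7, although its probe set is of the x_at type, which can read related genes. Kpna7, an importin of oocytes, changed by -4.57, from 1770 ± 862.9 to 53.95 ± 29.9 (SD, n = 4). Other members had already been much lower at the 2-cell stage than in the oocyte and fell further. Zar1, needed for the oocyte-to-embryo transition, averaged 13194 in oocytes, 1190 at the 2-cell stage and 464.6 at the 8-cell stage. Padi6, of the subcortical maternal complex, averaged 18815, 1920 and 670.8, and Ooep, another member of that complex, 21624, 2469 and 352.7.

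The 3 members that rose are named after their values were seen. Khdc3, also of the subcortical maternal complex, went from 396 to 3707 by 3.26 and averaged 20822 in blastocysts. Ago2, the slicing Argonaute, went from 340.5 to 2383 by 2.76, and Trim28, a corepressor that silences retroelements, from 2182, 2399, 3110 and 2983 to 8100, 8051, 8731 and 10059 by 1.71. In blastocysts Ago2 averaged 1432 and Trim28 9557. The 6 members that did not pass had changes from -0.50 to 0.56.

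The 2-cell arrays differed among themselves in how much signal of the maternal list was left. For 26 of its 33 fallen genes, which include Rfpl4b, replicate 1 was the highest 2-cell array, and for 18 replicate 3 was the lowest. Their summed intensity was 176346, 125249, 92171 and 108646 on 2-cell replicates 1 to 4, against 7195 to 8362 on the 8-cell arrays. The same order ran through the wider set. Replicate 1 was the highest 2-cell array for 50.3% of all lower probe sets and the lowest for 37.8% of all higher ones, whereas among probe sets that did not pass it was highest for 21.1% and lowest for 29.8%. Replicate 3 was the highest 2-cell array for 36.4% of the higher and the lowest for 40.8% of the lower probe sets. Whether these arrays hold embryos of slightly different age was not tested. Without replicate 1 the test called 1811 probe sets higher and 1749 lower.

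The Nlrp genes encode NOD-like receptor proteins, several of which are restricted to oocytes and early embryos. Of 11 measured, 8 were lower (72.7%, against 13.3% of all genes) and none higher, with a median change of -3.44. They were Nlrp4a, Nlrp4b, Nlrp4e, Nlrp4f, Nlrp9a, Nlrp9b, Nlrp9c and Nlrp14. The other 3, Nlrp5-ps, Nlrp10 and Nlrp12, averaged 20.18, 8.2 and 146.2 at the 2-cell stage and did not pass. Nlrp4a read 5106, 2830, 1965 and 2762 and then 76.2, 101.9, 54.0 and 103.8, a change of -4.88, with replicate 1 again high at the 2-cell stage.

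Genes of the 2-cell activation list took different courses. Of 16 measured, 2 were higher (12.5%), 6 lower (37.5%) and 8 did not pass, with a median change of -0.36. Over all genes 11.6% were higher and 13.3% lower. Not every member was first high at the 2-cell stage in these data. Obox5, one of the 6 lower, was already high in oocytes. Pramel18, a PRAME-like gene, read 1888, 1357, 919 and 1091 at the 2-cell stage and 4.4, 10.8, 6.2 and 7.7 at the 8-cell stage, a change of -5.57. It averaged 7.10 in oocytes and 11.12 at the 1-cell stage, so among these stages its signal was high on the 2-cell arrays; in blastocysts it averaged 28.68. Rfpl4b, a RING-finger gene also counted in the maternal list, changed by -4.01. It had averaged 40.6 in oocytes and 54.75 at the 1-cell stage against 1549 at the 2-cell stage, unlike a stored transcript. Ubtfl1, which encodes an HMG-box protein, changed by -1.72 to a mean of 1376, still far above its oocyte mean of 27.08.

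The Obox homeobox genes parted. Obox5 read 17875, 9339, 4554 and 8710 and then 359.7, 287.4, 274.1 and 252.6, a change of -4.86 (adjusted p = 1.57e-11), and had averaged 14740 in oocytes. Obox6 read 7923, 6920, 8849 and 7618 and then 21768, 15915, 16534 and 16086, a rise of 1.16 (adjusted p = 2.05e-05), from an oocyte mean of 35.15. The stages did not overlap for either. Rbm25, a splicing regulator, rose by 1.05, and Ddit4l, an inhibitor of mTORC1, and Zfp655 changed by -1.05 and -1.11. Ifi35, Tent5c, Zfp809, Eif1ad, Plk2, Chit1, Zfp54 and Duxf3 did not pass, with changes from -0.93 to 0.70. The Zscan4 family was not analysed here.

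**Figure D3:**
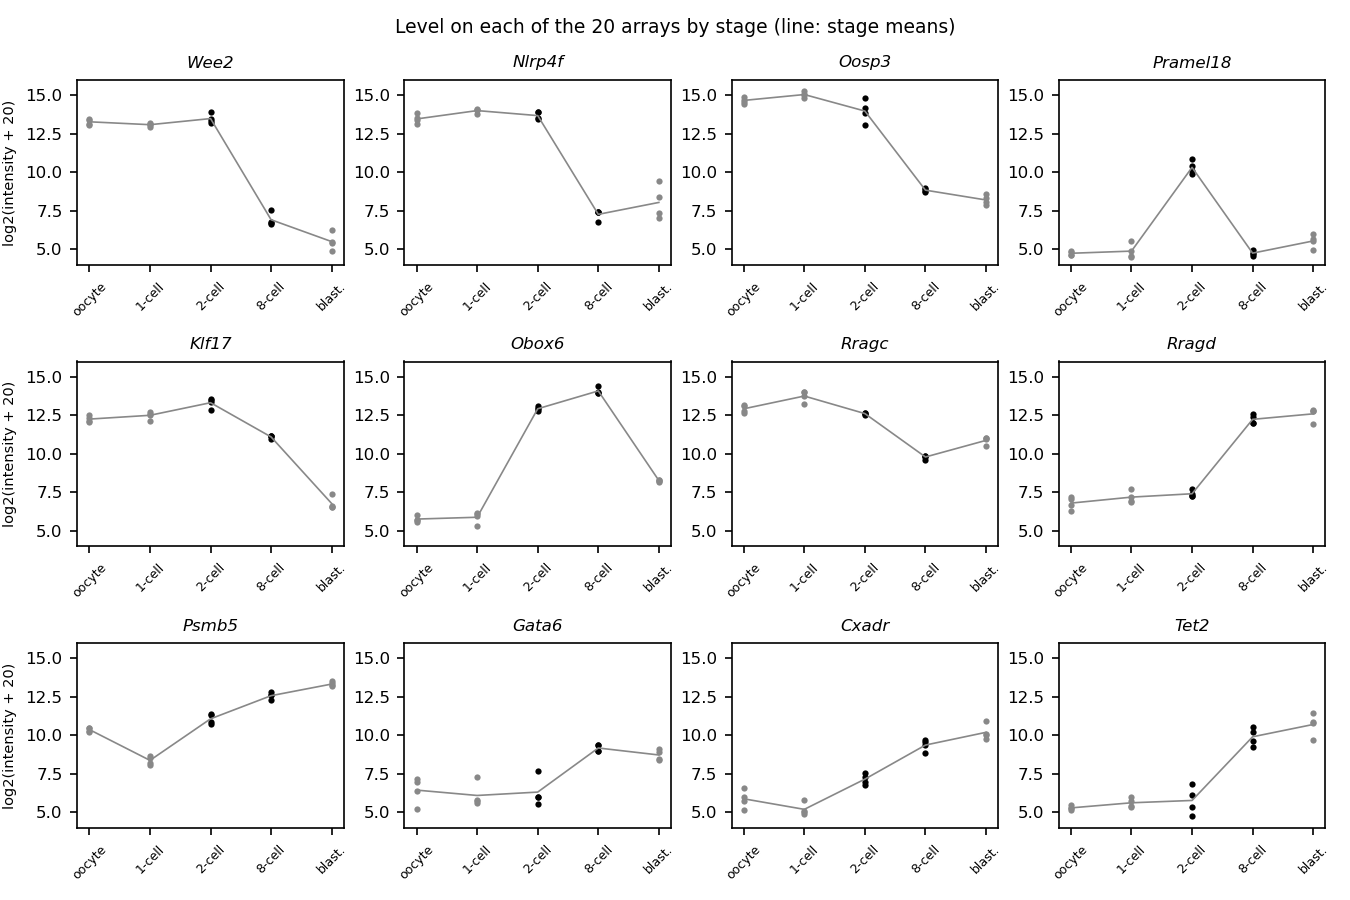
Level of 12 named genes on each of the 20 arrays, as log2(intensity + 20) by stage, with the stage means joined by a line and the 2-cell and 8-cell arrays in black. Wee2, Nlrp4f and Oosp3 stay high to the 2-cell stage, Pramel18 is high at the 2-cell stage alone, Obox6 is high at both, and Rragc and Rragd go opposite ways.

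The proteasome degrades ubiquitin-tagged proteins in a barrel of alpha and beta subunits capped by ATPases. Of 14 measured genes, 7 were higher (50%, against 11.6% of all genes) and none lower, with a median change of 1.00. Psma1, of the alpha ring, read 1276, 1180, 1252 and 902.4 at the 2-cell stage and 5549, 6349, 6300 and 6896 at the 8-cell stage, a rise of 2.43 ± 0.16 (SE, adjusted p = 1.01e-10). Psmb5, the catalytic subunit with chymotrypsin-like activity, read 1848, 1668, 2565 and 2668 and then 6161, 7128, 5121 and 6189, a rise on all 4 arrays. Psmc5, an ATPase of the cap, rose by 2.52 and Psma3 by 1.95. For Psma1 and Psmb5 the lowest 8-cell array lay well above the highest 2-cell array.

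Mitochondrial ribosomes make the few proteins encoded in mitochondrial DNA. Of 27 measured genes for their proteins, 12 were higher and none lower (44.4% and 0%), with a median change of 0.62. Without 2-cell replicate 1 the lower count was 1, and without 8-cell replicate 2 it was 2. Mrps10, of the small subunit, read 60.5, 19.4, 128.5 and 124.3 and then 910.1, 753.0, 974.4 and 789.0, a rise of 3.26. Mrpl44 rose by 3.00 from levels of 15.5 to 18.6, near the bottom of the array's range, and Mrpl52 and Mrpl27 by 2.18 and 2.10. In the respiratory chain 22 of 105 listed genes were measured. Of these 3 were higher (13.6%) and 2 lower (9.09%), with a median of 0.18, against 11.6% and 13.3% of all genes. Ndufc2 of complex I rose by 2.57 and Uqcrh of complex III by 1.82, while the assembly factors Sdhaf3 and Cox10 changed by -1.58 and -0.69. Without the x_at and s_at probe sets 1 of these genes was higher. The difference between the lists was not tested.

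Ribosomes are built in the nucleolus by a large set of assembly factors. Of 58 measured, 24 were higher (41.4%) and 4 lower (6.9%), against 11.6% and 13.3% of all genes, with a median of 0.54. Wdr3, of the small-subunit processome, read 2094, 2234, 3180 and 2061 and then 6468, 7038, 7374 and 8158, a rise of 1.61. Tsr1, which matures the small subunit, rose by 1.40 and Krr1 by 1.19, and the rises of this list ended at 1.65. Against them stood Utp14b, a retrogene copy of Utp14a that is known from the male germ line, at 5411, 5066, 6402 and 5806 and then 547.5, 887.9, 1032 and 1212. It changed by -2.65, while Utp14a rose by 0.83. The other lower members, named after their values were seen, were Riok1 (-0.88), Nol8 (-0.75) and Znhit6 (-0.62), and without 8-cell replicate 1 the lower count was 2.

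Only 3 genes for cytosolic ribosomal proteins were measured. Rpl22 read 5074, 5420, 6429 and 4491 and then 43505, 40945, 32632 and 28987, among the brightest of the array, a rise of 2.76. Rps3 rose by 3.76 on one probe set and changed by -1.65 on another. Rps16 was below 15 on all 8 arrays of both stages and did not pass.

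Of 72 splicing genes 23 were higher (31.9%) and 3 lower (4.17%), against 11.6% and 13.3% of all genes, with a median of 0.46. Snrpb, a core protein of the spliceosomal snRNPs, read 993.9, 883.5, 1675 and 1146 and then 7228, 6937, 7290 and 6421, a rise of 2.59. Prpf19, which activates the spliceosome, rose by 1.75 and Gemin5, which loads snRNAs for snRNP assembly, by 1.38. Its 3 lower members were Ddx46, a helicase of early spliceosome assembly, at -2.83, and the SR protein kinases Srpk2 (-2.69) and Srpk1 (-0.54). The kinases were named after their values were seen. The other probe set of Ddx46 did not pass (0.04, from 285.4 to 306.8). Of the wider family of DEAD-box and DEAH-box helicases, 7 of 23 were higher (30.4%) and 4 lower (17.4%). Ddx1 rose by 2.62 and Dhx33 by 1.14, and Dhx34, a factor of nonsense-mediated decay, changed by -1.41. The higher helicase count was 4 after median centring and without 2-cell replicate 2, 2-cell replicate 4 or 8-cell replicate 1.

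Translation factors and tRNA synthetases were higher in 12 of 41 cases (29.3%) and lower in 4 (9.76%), with a median of 0.49. Over all genes the shares were 11.6% and 13.3%. Eif5, which triggers GTP hydrolysis at the start codon, read 4309, 3849, 4232 and 3970 and then 13606, 16007, 11492 and 14831, a rise of 1.76. Mars1 and Wars2, which charge methionine and mitochondrial tryptophan tRNAs, rose by 2.77 and 2.82. Eef2k, the kinase that inhibits elongation factor eEF2, went the other way, from 2983, 2026, 1359 and 2049 to 146.2, 133.3, 188.5 and 203.3, a change of -3.46. The release factor genes diverged: Gspt1 rose by 0.99 and its retrogene relative Gspt2 changed by -1.01, both named after their values were seen. Without 8-cell replicate 3 or 4 the lower count was 2.

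Among chaperones 13 of 38 were higher (34.2%) and 1 lower (2.63%), against 11.6% and 13.3% of all genes, with a median of 0.18. Without 8-cell replicate 4 the lower count was 2. Dnaja1, a partner of Hsp70, read 778.7, 561.5, 662.0 and 857.3 and then 6230, 6822, 7202 and 6252, a rise of 3.19 (adjusted p = 1.26e-12). Dnajc17 rose by 2.61 and Pfdn6, of the prefoldin complex, by 1.29, and Fkbp14, a prolyl isomerase of the endoplasmic reticulum, changed by -1.90. Any difference between the stages, rise or fall, goes with the brighter bacterial controls and the lower Gapdh 3'/5' ratio of the 8-cell arrays. Their part in these lists was not tested.

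**Figure D4:**
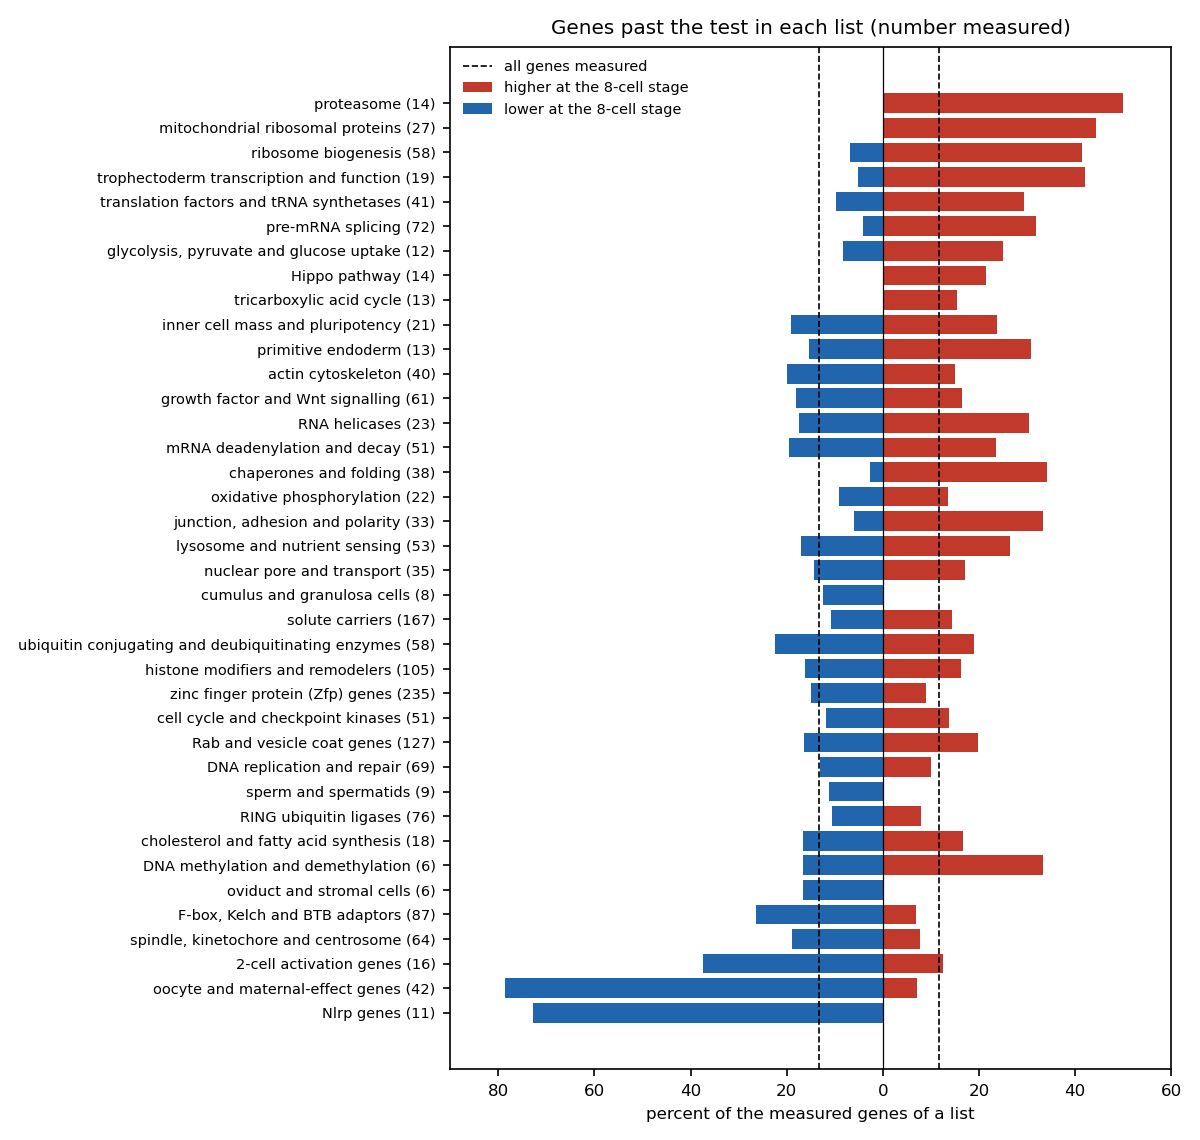
Percent of the measured genes of each list that were higher (red, to the right) or lower (blue, to the left) at the 8-cell stage, ordered by median change, with the number measured in brackets and dashed lines at the shares of all genes, 11.6% and 13.3%. Proteasome, mitochondrial ribosome, ribosome biogenesis and splicing lists lie past the right line, and Nlrp and maternal lists lie far past the left one.

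Because genes moved together, their promoters were set side by side. RefSeq windows (GRCm38.p6) of the 250 bases before the start were found for 7612 of the 9607 genes. The 120 bases before the start are shown for 3 genes of the rising machinery, Psma1 (chr7:114276117-114276236, minus strand), Psmb5 (chr14:54617996-54618115, minus strand) and Mrps10 (chr17:47369077-47369196, plus strand), and for 3 of the largest maternal falls, Wee2 (chr6:40442743-40442862, plus strand), Bmp15 (chrX:6320725-6320844, minus strand) and Nlrp4f (chr13:65205717-65205836, minus strand). They run 5′ to 3′ on the strand of the gene, with every CpG in capitals, to show how the CpG content differs.
Psma1: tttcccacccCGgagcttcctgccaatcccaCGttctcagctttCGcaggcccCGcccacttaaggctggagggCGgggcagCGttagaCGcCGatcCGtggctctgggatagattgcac
Psmb5: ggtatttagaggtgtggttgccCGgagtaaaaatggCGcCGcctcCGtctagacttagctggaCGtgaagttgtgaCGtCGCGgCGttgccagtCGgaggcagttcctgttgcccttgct
Mrps10: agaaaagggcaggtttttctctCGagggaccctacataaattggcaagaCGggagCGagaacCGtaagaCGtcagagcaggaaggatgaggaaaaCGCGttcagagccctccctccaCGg
Wee2: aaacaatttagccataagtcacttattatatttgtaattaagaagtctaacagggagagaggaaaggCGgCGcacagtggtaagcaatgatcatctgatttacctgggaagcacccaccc
Bmp15: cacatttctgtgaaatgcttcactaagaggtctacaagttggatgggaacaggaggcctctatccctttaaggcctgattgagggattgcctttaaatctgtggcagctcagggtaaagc
Nlrp4f: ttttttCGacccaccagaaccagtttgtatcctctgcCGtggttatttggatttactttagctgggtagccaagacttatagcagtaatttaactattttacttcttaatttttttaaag
In the full 250 bases the CpG count was 18 for Psma1, 15 for Psmb5 and 21 for Mrps10, against 3 for Wee2, 2 for Bmp15 and 2 for Nlrp4f.

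Psmb5 and Wee2 stood at the medians of the proteasome and maternal lists. Psma1 and Mrps10 stood at the upper quartiles, 18 and 21, of the proteasome and mitochondrial ribosome lists. Bmp15 and Nlrp4f stood at the lower quartile of the maternal list, 2. The printed stretches thus show a wider contrast than the medians do. The median CpG count in the 250 bases was 13 over all genes, 16 over the 893 higher and 14 over the 1045 lower genes. It was 7 over the 138 genes that were lower by at least 8-fold, of which 38.4% had fewer than 5 CpG, against 23% of all genes. In the maternal list the median was 3 and 71.4% of 35 genes had fewer than 5, whereas it was 15 in the proteasome list, 18.5 in the mitochondrial ribosome list and 18 in the ribosome biogenesis and splicing lists. The low counts thus lay among the genes that fell most rather than among the lower genes as a whole.

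**Figure D5:**
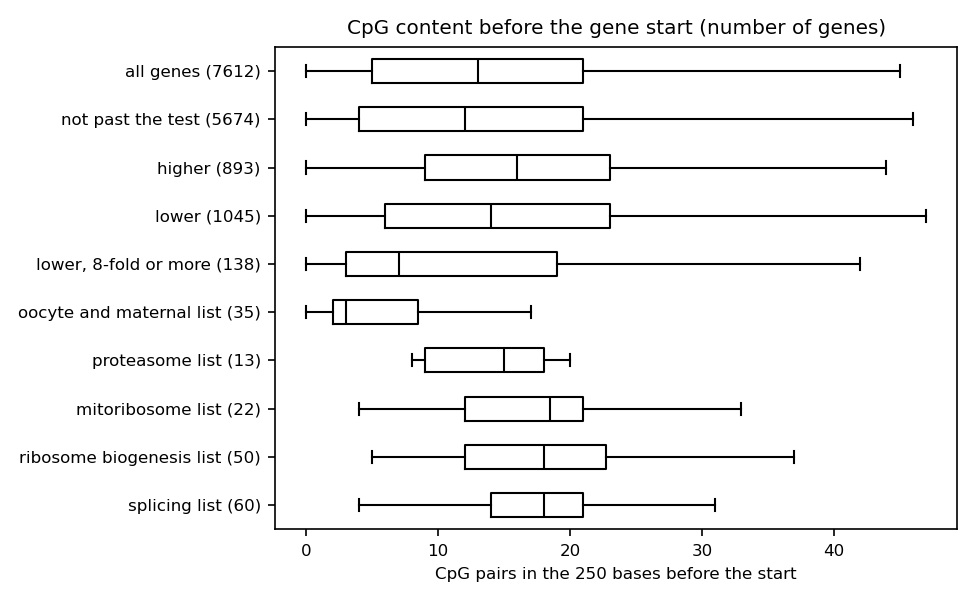
Number of CpG pairs in the 250 bases before the gene start, by group of genes, with boxes from the lower to the upper quartile, a line at the median and whiskers to the last value within 1.5 box lengths. The maternal list has a median of 3 and the genes lower by at least 8-fold one of 7, against 13 over all genes.

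Of 12 short motifs searched on both strands of the 250 bases, the ETS core CCGGAAG, which itself holds a CpG, was in 10.3% of all windows, 13% of the higher and 9.28% of the lower genes. It was in 36.4% of the mitochondrial ribosome list (n = 22), 30.8% of the proteasome list (n = 13), 28.3% of the splicing list (n = 60), 22% of the ribosome biogenesis list (n = 50) and 0% of the maternal list (n = 35). The Sp/KLF box GGGCGG was in 49.6% of all windows, 57.8% of the higher genes and 25.7% of the maternal list. The NF-Y box CCAAT varied less, at 35.2% of all windows, 32.9% of the higher, 39.1% of the lower genes and 40% of the maternal list. A match describes the letters in these windows.

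Regulators of mRNA tails and decay went both ways, with 12 of 51 higher (23.5%) and 10 lower (19.6%), against 11.6% and 13.3% of all genes. Tent4a and Tent4b encode related non-canonical poly(A) polymerases. Tent4a read 4022, 3224, 2978 and 3644 and then 144.1, 216.6, 199.3 and 216.7, a change of -4.03 (adjusted p = 4.21e-14), although its dimmer probe set did not pass. Tent4b read 1346, 1765, 2016 and 1519 and then 9549, 11376, 8819 and 12156, a rise of 2.65 (adjusted p = 7.39e-10). The stages did not overlap for either gene, and at the 2-cell stage both were above the table's median on all 4 arrays. Ttc37, of the Ski complex that feeds the exosome, changed by -3.92 and Tnrc6b, the Argonaute partner of microRNA silencing, by -2.23. For each, a dimmer probe set did not pass (-0.16 and -0.62). The Argonaute genes themselves, named after their values were seen, were higher for Ago2 (2.76), Ago4 (2.32) and Ago1 (0.95) and lower for Ago3 (-0.91).

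Of 105 histone modifiers and remodelers 17 were higher (16.2%) and 17 lower (16.2%), against 11.6% and 13.3% of all genes. Their median was 0.06, the same as over all genes. Suv39h2, a methyltransferase of histone H3 lysine 9, read 406.7, 371.7, 318.9 and 414.3 and then 21.6, 24.1, 12.1 and 28.7, a change of -3.27. Chd7, a chromatin remodeler, changed by -3.04 and Kdm1b, the demethylase needed for imprinting in oocytes, by -2.47. The DNA methylation list had 6 measured genes. Tet1 rose by 1.26, from 224.0, 260.1, 317.7 and 362.3 to 627.0, 522.7, 794.9 and 996.7, and Tet2 by 1.79. Dnmt1, the maintenance methyltransferase, changed by -1.60 (adjusted p = 0.00255) on an x_at probe set at 874.6, 424.3, 747.8 and 239.5 and then 73.0, 296.4, 242.7 and 100.8, where the stages overlapped. Tet3, the form stored in the oocyte, averaged 85.3 and 76.35 and did not pass, nor did Uhrf2 and Mbd4. The lower count of this list was 0 without x_at and s_at probe sets and 2 with a pseudocount of 80, with the filter on dim probe sets, after quantile normalization or median centring, in the fit of only the 8 arrays, and without 8-cell replicate 4.

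Of junction, adhesion and polarity genes 11 of 33 were higher (33.3%, against 11.6% of all genes) and 2 lower, with a median of 0.17. Cxadr, a tight-junction adhesion receptor, read 107.1, 90.9, 170.6 and 137.9 and then 438.1, 638.2, 811.0 and 759.4, a rise of 2.21. Ocln, the tight-junction protein occludin, rose by 1.64, from 67.6 to 181.4 up to 371.0 to 511.6. Nectin1, of the adherens junction, rose by 2.29 on its brighter probe set, with its other one not past the test, and Ctnnd1, the catenin that holds cadherin at the membrane, by 1.25. The lower members, named after their values were seen, were the polarity genes Dlg1 (-0.73) and Pard3 (-0.59), and 1 gene was lower in the fit of only the 8 arrays, without the intensity trend, and without 2-cell replicate 1 or 3 or 8-cell replicate 2 or 3. Cdh1 was not analysed here.

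Actin genes showed no common direction, with 6 of 40 higher (15%) and 8 lower (20%), against 11.6% and 13.3% of all genes. Diaph2, a formin that elongates filaments, rose by 2.33 from 11 to 16 up to 86.6 to 214.5. Daam1, another formin, changed by -1.99 and Myo5b, a transport myosin, by -1.47. Spire1, which nucleates the actin mesh of the oocyte, changed by -2.19 on its brightest probe set, while a dimmer one rose by 0.60.

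The Hippo pathway lets inner and outer cells of the embryo respond to their position through TEAD transcription factors. Of 14 measured genes 3 were higher (21.4%, against 11.6% of all genes) and none lower. Stk4, one of the core kinases, read 159.3, 288.6, 467.0 and 317.4 and then 1663, 2625, 2352 and 2122, a rise of 2.82, and both of its probe sets rose. Tead1 rose by 1.71 from 209.4, 399.4, 361.2 and 389.2 to 1224, 1282, 743.4 and 1376. Taok1, a kinase upstream of Stk4, rose by 0.66. One gene of the list was lower with a pseudocount of 80, with quantile normalization, after median centring, without the intensity trend, and without 2-cell replicate 4 or 8-cell replicate 1.

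Of 19 trophectoderm genes 8 were higher (42.1%) and 1 lower (5.26%), against 11.6% and 13.3% of all genes, with a median of 0.53. But the higher count rested on single arrays. It was 4 without 2-cell replicate 1, and 5 without 2-cell replicate 4, 8-cell replicate 2 or 8-cell replicate 4 and after median centring. Besides Vnn1, Csta1, a cystatin of the blastocyst epithelium, rose by 1.77 from at most 26.6 to 81.0 or more. Dab2, an endocytic adaptor, also rose, and Esrrb, an orphan nuclear receptor, rose by 0.90. Aqp11, an aquaporin, changed by -0.64, a call that was lost with quantile normalization. Dab2 did not pass without 2-cell replicate 1 or 3, and no gene of the list was lower after quantile normalization or without x_at and s_at probe sets.

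Genes of the inner cell mass list split, with 5 of 21 higher (23.8%) and 4 lower (19%), against 11.6% and 13.3% of all genes. Sall1, a zinc finger factor, read 40.3, 33.9, 30.9 and 91.1 and then 262.8, 319.0, 273.5 and 236.0, a rise of 2.15, and Mkrn1, a ubiquitin ligase, rose by 1.34. Klf17, a Kruppel-like factor of the early embryo, read 12078, 10692, 11385 and 7514 and then 2281, 2234, 1977 and 2237, a change of -2.22, and its other probe set changed by -2.36. Spry4, an inhibitor of FGF signalling, changed by -2.99. In blastocysts Klf17 averaged 94.1 and Spry4 143.9, against 4930 and 987.6 in oocytes. Sall1 and Mkrn1 averaged 283.5 and 566.7 in blastocysts, against 28.48 and 150 in oocytes. Without x_at and s_at probe sets 3 of the genes were higher. Nanog, Pou5f1 and Cdx2 were not analysed here.

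Of 13 primitive endoderm genes 4 were higher (30.8%) and 2 lower (15.4%), against 11.6% and 13.3% of all genes. Gata6, the factor that specifies this lineage, read 189.9, 44.1, 27.4 and 44.7 and then 646.9, 648.6, 484.7 and 491.4, a rise of 2.86. Fgfr1 rose by 1.02 and Dab2 is shared with the trophectoderm list. Ctsh, a cathepsin, changed by -0.69. The call of Fgfr1 was lost without 2-cell replicate 2 or 8-cell replicate 1, and that of Ctsh without 2-cell replicate 1, 8-cell replicate 1 or 8-cell replicate 2 and with quantile normalization. These counts were unstable: the higher count was 2 without 2-cell replicate 1, 2-cell replicate 3 or 8-cell replicate 1, and the lower count 0 without 2-cell replicate 1, 8-cell replicate 1 or 8-cell replicate 2 and without x_at and s_at probe sets.

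Of 12 genes of glycolysis and glucose use 3 were higher (25%) and 1 lower (8.33%), against 11.6% and 13.3% of all genes. The paired regulators of pyruvate dehydrogenase were among the changed genes. Pdp2, a phosphatase that activates the enzyme, rose by 1.26, while Pdp1, its paralog, was at -0.50 (adjusted p = 0.0426), a call that was lost in 9 of the 18 alternatives. Aldoa, aldolase, rose by 1.10 and Pfkfb4, which sets fructose 2,6-bisphosphate, by 0.78, a call that was lost without 2-cell replicate 1 or 8-cell replicate 1. In the tricarboxylic acid cycle 2 of 13 were higher (15.4%), Dlst, of the 2-oxoglutarate dehydrogenase complex, by 1.77 and Me3, a malic enzyme, by 1.04. Lipid synthesis had 3 of 18 higher (16.7%) and 3 lower (16.7%). Elovl7, a fatty acid elongase, changed by -3.98 and Acsl3, which activates fatty acids, by -1.85, and Stard4, a cholesterol carrier, rose by 2.15.

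Lysosome and nutrient-sensing genes were higher in 14 of 53 cases (26.4%) and lower in 9 (17%), against 11.6% and 13.3% of all genes. Apart from the Rag genes and Epas1, Atg5, needed for autophagosome growth, fell from 2180, 1151, 1048 and 1116 to 275.7, 373.3, 338.8 and 269.8. Solute carriers had 24 of 167 higher (14.4%) and 18 lower (10.8%), close to the shares of all genes (11.6% and 13.3%). Slc39a2 was joined by Slc35a3 and Slc35g1, nucleotide-sugar transporter family genes, with rises of 2.54 and 2.53. Slc19a3, the thiamine transporter, read 3580, 3385, 2928 and 3918 and then 919.7, 802.6, 751.4 and 857.2, a change of -2.02.

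Cell-cycle genes were spread evenly, with 7 of 51 higher (13.7%) and 6 lower (11.8%), close to the shares of all genes (11.6% and 13.3%). Anapc10, a subunit of the anaphase-promoting complex, read 1851, 1752, 2068 and 1599 and then 9514, 8480, 9471 and 5473, a rise of 2.14 on its brighter and 2.19 on its other probe set. Cdc27, another subunit, rose by 1.73 on one probe set and changed by -0.82 on another. E2f2 changed by -1.85. Spindle, kinetochore and centrosome genes were lower in 12 of 64 cases (18.8%, against 13.3% of all genes), with a median of -0.25. Higher were 5 (7.81%, against 11.6%). Knstrn, a kinetochore and spindle protein, read 5892, 4264, 2995 and 3698 and then 456.8, 392.3, 249.0 and 259.0, a change of -3.56. The dimmer probe sets of Knstrn did not pass (-0.51 and 0.31). Sgo1, the protector of centromeric cohesion, changed by -2.06, and Cep170 and Cep57 of the centrosome by -1.83 and -1.60. The higher count was 3 without 2-cell replicate 2 or 8-cell replicate 1, and 9 when the probe set with the smallest p stood for a gene.

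Replication and repair genes had 7 of 69 higher (10.1%) and 9 lower (13%), close to the shares of all genes (11.6% and 13.3%). Gins2 and Gins1 encode subunits of the same GINS complex of the replicative helicase. Gins2 read 1360, 932.9, 1051 and 1013 and then 44.3, 63.7, 80.7 and 80.3, a change of -3.68 (-2.48 on its dimmer probe set), whereas Gins1, named after its values were seen, rose by 1.66. Mcm5, of the helicase ring, rose by 1.32 and Rrm2b, a ribonucleotide reductase subunit, changed by -2.41. Without x_at and s_at probe sets 4 genes were higher.

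Nuclear transport genes were higher in 6 of 35 cases (17.1%) and lower in 5 (14.3%), against 11.6% and 13.3% of all genes. The lower count was 3 without x_at and s_at probe sets. Xpot, which exports tRNA, rose by 2.40 and Nup205, of the inner pore ring, by 1.70. Nup214, of the cytoplasmic face, read 5898, 3974, 3710 and 4100 and then 828.3, 871.5, 805.0 and 1130, a change of -2.25. Among 127 Rab and vesicle coat genes 25 were higher and 21 lower. Trappc11 and Trappc4, of the TRAPP tethering complex, both rose, the second by 1.48, and Exoc3l2 and Vps13a, a lipid transfer protein, changed by -2.94 and -2.17.

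Growth factor and Wnt genes were higher in 10 of 61 cases (16.4%) and lower in 11 (18%), against 11.6% and 13.3% of all genes. Rbpj, the DNA-binding partner of Notch, read 205.6, 263.3, 249.6 and 264.6 and then 1083, 1425, 1095 and 1137, a rise of 2.18. Smurf2, a ubiquitin ligase that restrains TGF-beta signalling, changed by -1.87, and Bmp15 and Spry4, described above, were lower as well.

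Adaptors bring substrates to ubiquitin ligases. Of 87 F-box, Kelch and BTB genes 23 were lower (26.4%, against 13.3% of all genes), with a median of -0.15. Higher were 6 (6.9%, against 11.6%). The Fbxw genes, many of them oocyte genes, made up 9 of the 23, out of 13 measured, and 14 of the other 74 fell. Fbxw19 read 5450, 3708, 3557 and 3997 and then 230.9, 326.9, 136.9 and 267.2, a change of -4.05, and Kbtbd8, an adaptor of cullin 3, changed by -3.42 from 10391, 9419, 6314 and 6845 to 618.5, 738.9, 731.2 and 880.2. RING ligases had 8 of 76 lower (10.5%) and 6 higher (7.89%), against 13.3% and 11.6% of all genes. After median centring 3 were higher. Trim75 changed by -4.60, Trim59 by -2.93 and Rnf170 by -2.16. Of 58 ubiquitin conjugating and deubiquitinating enzymes 11 were higher (19%) and 13 lower (22.4%), against 11.6% and 13.3% of all genes. Usp28 changed by -3.46, Usp46 by -2.95, Otud4 by -1.58, and Usp15 was lower too.

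Zinc finger protein genes, most of them KRAB-type repressors or unassigned factors, were lower in 35 of 235 cases (14.9%) and higher in 21 (8.94%). Over all genes 13.3% were lower and 11.6% higher. Zfp616 read 462.1, 463.1, 317.5 and 453.4 and then 25.5, 6.0, 2.9 and 5.3, a change of -3.93. Zfp709, Zfp513 and Zfp946 changed by -3.08, -2.68 and -2.25. Their median change was 0.05, close to that of all genes.

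Markers of other cells that could accompany embryos were checked. The 8 cumulus and granulosa markers summed to 2908 to 3496 on the 2-cell and 1921 to 2196 on the 8-cell arrays. The gap held Amhr2, the anti-Mullerian hormone receptor, at 1850, 1794, 2402 and 2165 and then 834.5, 815.8, 624.3 and 798.8 on an x_at probe set, a change of -1.39. Amhr2 averaged 196.4 in oocytes, 167 at the 1-cell stage and 250.3 in blastocysts, so its signal was highest at the 2-cell stage. The other 7 markers did not pass on their brightest probe sets, and on a dim one Cd44 changed by -0.57, from 19.6 to 5.65. The 9 sperm and spermatid markers summed to 754.9 to 822.3 and 717.1 to 962.9, with Zpbp at -1.01 (adjusted p = 0.0209) and 5 of 9 below the table's median on all 8 arrays. Zpbp did not pass without 2-cell replicate 1 or 2 or 8-cell replicate 2 or 4, nor in the fit of only the 8 arrays. The 6 oviduct and stromal markers summed to 557.6 to 889.6 and 544.9 to 686.1, with the oestrogen receptor gene Esr1 at -2.16. Of blood and vessel markers only Laptm5 and Ptprc were measured, and neither passed on its brightest probe set, at 136.2 and 146.7 on average for Laptm5 and 14 and 24.15 for Ptprc. On another, x_at, probe set Laptm5 rose by 1.03 (adjusted p = 0.0287), from 85.88 to 185.6. The part of these markers in the results above was not tested.

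The arrays of oocytes and blastocysts took no part in the contrast and share none of its arrays, although all 20 share 1 estimate of spread. Of the 2303 higher probe sets 55.1% were also higher in blastocysts than in oocytes and 2.61% lower, against 15.9% and 10.8% of all probe sets. Of the 2015 lower ones 61.4% were lower and 5.66% higher. These overlaps made up 35.5% of the blastocyst rises and 51.1% of the blastocyst falls. Of the probe sets that fell, 78.9% were above the table's median on all 4 oocyte arrays, against 42.3% of those that rose and 35% of all. In blastocysts 67.7% of the risen and 48.5% of the fallen probe sets were above that median on all 4 arrays, against 36.7% of all. A fall can be called only where the earlier stage of the contrast has signal, and a rise only where the later stage has it. The shares above the median were not matched on that signal. Whether they differ beyond this selection was not tested.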

How the data were processed

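The values are intensities as deposited by the authors, 1 per probe set and array, on a linear scale; no source used here names the software behind them, and their common trimmed mean was found in the table. Each was taken as log2(intensity + 20), with no filter. Stage means were fitted to all 20 arrays (15 residual degrees of freedom) with limma 3.58.1 in R 4.3.3, with an intensity trend, and p-values were adjusted by Benjamini-Hochberg over 22511 probe sets. Genes are named through the platform annotation: 14661 probe sets have 1 symbol, 245 several and 7605 none. The probe set with the highest mean log2 value over 20 arrays, called the brightest, stands for a gene. Named were the 12 largest rises and falls past the test (1 symbol, not x_at, no clone or predicted-gene name such as Gm or Rik, no overlap of arrays), up to 4 genes of smallest p per list of at least 5 measured, and the members of small lists. Members and lists were chosen with earlier results of these data known. The lists were measured only in part. Measured were 42 of 91 maternal, 14 of 50 proteasome, 27 of 78 mitochondrial ribosome, 22 of 105 respiratory chain and 3 of 83 cytosolic ribosomal genes. List counts hold for the measured genes. The tests were checked on simulated data. Alternatives changed the pseudocount, filter, scaling, arrays, trend, weights, probe sets, block and replicates.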

Additional observations from a re-analysis of the deposited data

Results flagged for a closer look

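Of 308 groups of 4 arrays examined for the named probe sets, 26 (8.44%) held 1 array far from the other 3 relative to their range. Chance gives about 5% for normally distributed values. The rate for linear intensities, which were used, was not checked, so no excess is claimed. Of the 26 outlying arrays 8 were 2-cell replicate 1. Replicate 1 of the 2-cell stage was above its group in intensity for Atg5 (2180, nearest 1151), Mcm5 (1276, nearest 1077), Fbxw18 (2867, nearest 1816), Gata6 (189.9, nearest 44.7), Ctsh (1546, nearest 1078), Vnn1 (78.5, nearest 14.5), Rnaseh2b (211, nearest 36.2) and Uqcrh (379.4, nearest 247.4). Replicate 2 of the 2-cell stage was above its group in intensity for Rps16 (4.7, nearest 3.2). Replicate 2 of the 2-cell stage was below its group in intensity for Csta1 (1.7, nearest 22.8). Replicate 3 of the 2-cell stage was above its group in intensity for Wdr3 (3180, nearest 2234). Replicate 3 of the 2-cell stage was below its group in intensity for Zfp616 (317.5, nearest 453.4). Replicate 4 of the 2-cell stage was above its group in intensity for Sall1 (91.1, nearest 40.3), Mkrn1 (233.4, nearest 159) and Tnrc6b (721.3, nearest 581). Replicate 4 of the 2-cell stage was below its group in intensity for Smurf2 (4011, nearest 4957). Replicate 1 of the 8-cell stage was above its group in intensity for Zfp616 (25.5, nearest 6), Obox6 (21768, nearest 16534) and Ddx46 (77.1, nearest 70.3). Replicate 2 of the 8-cell stage was above its group in intensity for Wee2 (167.8, nearest 90.7) and Rbpj (1425, nearest 1137). Replicate 3 of the 8-cell stage was below its group in intensity for Nlrp4f (92.4, nearest 152.7), Nectin1 (190, nearest 339.6), Amhr2 (624.3, nearest 798.8) and Klf17 (1977, nearest 2234). Replicate 4 of the 8-cell stage was above its group in intensity for Bmp15 (124.7, nearest 29.3).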

How the results depend on the processing

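Under all 18 alternatives to the count of probe sets, the higher count ran from 1811 to 2481 and the lower from 1749 to 2268. Scaling turned the balance of calls, 53.3% of which were rises as deposited, to 45.2% after median centring (1874 higher, 2268 lower) and 49.8% after quantile normalization (2194 and 2216). Leaving out 1 array gave 1811 to 2097 higher and 1749 to 1920 lower. The replicate numbers do not pair the arrays (correlations of deviations from -0.00 to 0.01, and 1 of 4 numbers best with itself), and with replicate number as a block 2245 were higher and 1977 lower. Of 2733 values of named probe sets under the alternatives, 25 lost their call, 1 gained one (Rps16, 0.65 with a pseudocount of 5) and 9 changed sign, all of Tet3 or Laptm5, neither past the test. Tet3 went from 0.00 to -0.03 with a pseudocount of 80, -0.09 with quantile normalization, -0.08 with median centring and -0.24 to 0.35 without single arrays, and Laptm5 to -0.02 to 0.23 without single arrays. The cause was not tested. Calls were lost for Aqp11, Ctsh, Dab2, Fgfr1, Pdp1, Pfkfb4 and Zpbp. Only 4 arrays per stage limit the precision, and dim probe sets have understated changes.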

Other observations

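Different probe sets of one gene did not always move together. Of 3280 genes with more than 1 probe set, 454 had at least 2 past the test, and 69 of these had probe sets called in both directions, 45 of them with no overlap of arrays in either. The following were chosen after their values were seen. Homer1, a synaptic scaffold gene, rose by 3.15 on one probe set (from 46.62 to 549.3) and changed by -2.06 on another (from 435.4 to 94.28). Iqca rose by 1.93 on one and changed by -4.80 on another (from 6921 to 230). Kidins220 rose by 1.18 and changed by -2.16, and Wdr37 rose by 1.16 and changed by -1.90. Whether these probe sets read different transcripts was not tested. Of 70 named genes with more than 1 probe set, 41 had another called the same way and 3 had one called the opposite way. Spire1 had both. Other named genes had no other probe set past the test. Among them were the falls of Ddx46, Knstrn, Ttc37, Cep170, Fkbp14, Exoc3l2 and Nup214 and the rises of Prpf19, Nup205 and Mcm5.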
